A study of Mus musculus with 18 samples.

Results

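Mouse liver taken 0.5 h after a 2/3 partial hepatectomy was compared with liver taken after a sham operation. The members were the 2 libraries labelled 0.5h PH and the 2 libraries labelled sham, 4 of the 18 libraries of a time course that also holds 2, 4, 24, 48, 72, 120 and 168 h after hepatectomy. The 0.5 h group was liver of C57BL/6 mice whose larger lobes had been cut away 0.5 h before collection, and the sham group was liver of C57BL/6 mice after a sham operation, in which no lobe is taken. Each library was made from a pool of RNA from 3 liver samples, so n = 2 pools per group, or 1 where a test leaves a pool out, and a p-value measures the spread between pools, which may be partly technical. The sham livers are labelled as a control with no collection time, and neither sex nor age stands in the labels.

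After hepatectomy the remaining liver receives the whole portal blood flow, and quiescent hepatocytes leave their resting state within hours. The first transcripts to rise in stimulated cells are immediate early genes, which need no new protein for their transcription; they encode short-lived transcription factors such as Jun and Fos, phosphatases that switch kinases off again, and proteins that speed the decay of other mRNAs. Many of them carry a cAMP response element or a serum response element before their start, through which CREB and SRF act. Their mRNAs are unstable, so that levels can peak and return within hours.

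Reads mapped uniquely to each gene were counted by the authors, and totals in units of 1000000 reads were 8.20 and 8.54 in the 0.5 h pools and 7.78 and 8.01 in the sham pools. Albumin, the main secreted protein of hepatocytes, took 8.56% and 10.3% of the reads in the 0.5 h pools, against 9.28% and 9.10% in the sham pools. Levels are given as CPM, reads per 1000000 with TMM scaling. In 2 of the 4 libraries the gene table stopped short, at a count of 157 in 0.5 h replicate 1 and of 52 in sham replicate 2, so that a gene missing there can have any level up to 19.0 CPM in the 0.5 h pool and 6.52 CPM in the sham pool, the bounds used below. Changes in 3 sets of libraries were therefore tested with edgeR's quasi-likelihood test and Benjamini-Hochberg adjustment over the genes of each test, at a threshold of 0.05. The 18-library test held all 4 pools and 4906 genes, the 17-library test left out 0.5 h replicate 1 and held 8026 genes, and the 16-library test held the 12199 genes of the complete tables. A gene between the 2 bounds in sham entered the 18-library test only if 0.5 h replicate 1 reached 19.0 CPM. This favours rises among scarce genes and positive list medians in that test. The 0.5 h group had 1 pool in the 17-library test, and both groups had 1 pool in the 16-library test. The spread of such a lone pool was assumed to equal that of the other groups.

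In the 18-library test 8 genes rose at 0.5 h, 0.163% of the genes tested, and 2 fell, 0.0408% (edgeR, adjusted p under the threshold). The 8 were Dusp1, Jun, Slc25a25, Btg2, Pim3, Gdf15, Plk3 and Ppp1r15a, and the 2 that fell were Kpna4 and Antxr2. The median log2 fold change of all 4906 genes was 0.01, and 26 genes differed by at least 2-fold. At an unadjusted p under 0.05 there were 844 genes. Both 0.5 h pools lay above both sham pools in 1343 genes (27.4%) and below them in 1474 genes (30.04%). In the 17-library test 11 genes rose, 0.137% of the genes tested, and 2 fell, 0.0249%. In the 16-library test 6 rose, 0.0492%, and 0 fell, 0%, where 756 genes had an unadjusted p under 0.05 and DESeq2 called 1 lower. Over the 3 tests 18 genes were called, and Dusp1, Jun and Slc25a25 were called in each.

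**Figure D1:**
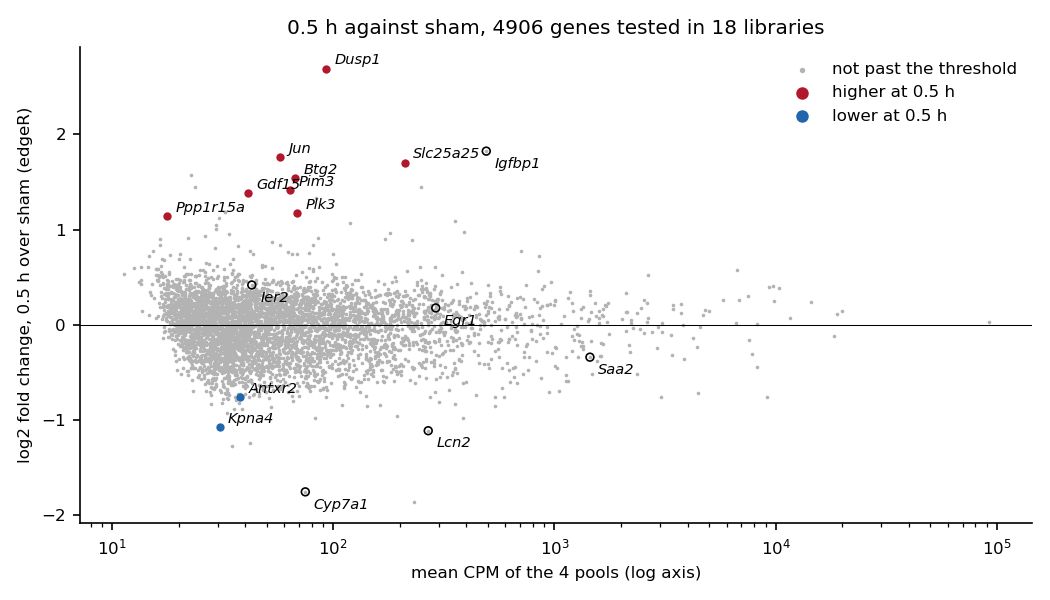
Log2 fold change of 0.5 h over sham (vertical axis, edgeR) against the mean level over the 4 pools (horizontal axis, CPM, log scale) for the 4906 genes of the 18-library test. The 10 called genes are filled and named, and open circles mark 6 named genes that did not pass the threshold; Dusp1 stands highest among the called genes at 2.69, and Egr1 and Ier2 lie at 0.18 and 0.42.

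The calls rested on few pools. Without 0.5 h replicate 1 the 18-library genes gave 10 higher and 1 lower calls, without 0.5 h replicate 2 they gave 3 and 0, without sham replicate 1 they gave 4 and 0, and without sham replicate 2 they gave 2 and 0. Jun and Dusp1 kept their call in 30 of 30 alternative settings of tool, scaling, filter and libraries, with adjusted p up to 0.0343, and Plk3 in 29 of 30. Slc25a25 kept it in 26, Kpna4 in 25, Antxr2 in 23, Pim3 in 18 and Btg2 in 17 of 30. Gdf15 kept it in 18 and Ppp1r15a in 13 of 29 settings that gave an adjusted p. No called gene changed sign in any of these settings.

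Jun, a subunit of the AP-1 transcription factor, had 77.3 and 101 CPM in the 0.5 h pools, against 24.4 and 27.9 CPM in the sham pools. Both 0.5 h pools were high and the groups did not overlap. Its level averaged 89.0 ± 16.6 CPM at 0.5 h and 26.2 ± 2.52 CPM in sham (SD, n = 2 each), a ratio of means of 3.40. The log2 fold change was 1.77 ± 0.15 (SE, adjusted p = 9.41e-05, edgeR). The gene lies at chr4:95049036-95052222. In the other 16 libraries the highest value was 56.5 CPM, so that both 0.5 h pools stood above all the rest.

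Dusp1, a nuclear phosphatase that takes phosphate off the p38, JNK and ERK kinases, showed the largest rise among the genes of the 18-library test that were called. It had 116 and 207 CPM at 0.5 h, against 23.4 and 26.6 CPM in sham. The sham pools lay close together and both 0.5 h pools far above them, while the 0.5 h pools differed from each other. The log2 fold change was 2.69 ± 0.27 (SE, adjusted p = 0.000396, edgeR), and without 1 of the 4 pools at a time it ran from 2.21 to 3.05. The gene lies at chr17:26505591-26508472.

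Of the RefSeq promoter windows, 250 bases before to 50 after a start in GRCm38.p6, 14 of the 18 called genes had one. The palindromic cAMP response element, spelled TGACGTCA on both strands, was looked for in each. It stood in 4 of the 8 genes that rose in the 18-library test, Dusp1, Slc25a25, Btg2 and Ppp1r15a. Over the 3 tests it stood in 5 of the 12 risen genes with a window, with Epha2 added, and in 0 of the 2 fallen genes with one. The same letters were in 1.79% of all 32851 windows and in 3.21% of the 3959 tested genes with a window. Jun had none of these, but the related letters TGACATCA, which were in 3.62% of all windows and 1.87% of the tested genes. The windows of the other 3 of the 8, Pim3, Gdf15 and Plk3, and of Rgs16, which had the largest called log2 fold change in any test, did not hold TGACGTCA. The 6 windows with either element are shown so that its place and surroundings can be compared. Capitals mark the element on the strand of the gene, and the first base of the capitals lies at position -143 from the start in Dusp1, -150 in Slc25a25, -166 in Btg2, -12 in Ppp1r15a, -33 in Epha2 and -45 in Jun.
Dusp1, chr17:26508423-26508722, minus strand: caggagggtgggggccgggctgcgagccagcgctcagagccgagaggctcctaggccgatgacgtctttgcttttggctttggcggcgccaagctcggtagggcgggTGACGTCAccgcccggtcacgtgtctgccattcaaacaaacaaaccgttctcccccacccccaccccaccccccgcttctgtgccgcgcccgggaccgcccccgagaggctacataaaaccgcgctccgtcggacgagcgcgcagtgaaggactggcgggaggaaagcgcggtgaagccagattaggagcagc
Slc25a25, chr2:32424017-32424316, minus strand: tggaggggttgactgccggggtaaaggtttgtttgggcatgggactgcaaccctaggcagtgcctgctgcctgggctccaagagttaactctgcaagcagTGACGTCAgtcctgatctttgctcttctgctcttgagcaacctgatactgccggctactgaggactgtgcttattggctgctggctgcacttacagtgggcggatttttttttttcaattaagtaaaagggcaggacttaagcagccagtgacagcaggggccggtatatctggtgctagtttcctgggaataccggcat
Btg2, chr1:134079106-134079405, minus strand: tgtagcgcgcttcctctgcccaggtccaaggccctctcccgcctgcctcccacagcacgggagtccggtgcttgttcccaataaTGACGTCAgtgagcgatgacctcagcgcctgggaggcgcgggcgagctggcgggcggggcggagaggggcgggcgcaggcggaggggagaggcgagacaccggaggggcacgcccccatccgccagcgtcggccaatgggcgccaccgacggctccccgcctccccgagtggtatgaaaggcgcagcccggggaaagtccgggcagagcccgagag
Ppp1r15a, chr7:45526219-45526518, minus strand: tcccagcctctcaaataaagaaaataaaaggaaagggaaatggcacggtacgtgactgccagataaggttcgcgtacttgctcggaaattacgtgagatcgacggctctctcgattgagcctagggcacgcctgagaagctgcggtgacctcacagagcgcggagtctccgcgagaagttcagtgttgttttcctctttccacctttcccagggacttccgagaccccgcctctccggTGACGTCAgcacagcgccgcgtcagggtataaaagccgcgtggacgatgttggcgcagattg
Epha2, chr4:141300971-141301270, plus strand: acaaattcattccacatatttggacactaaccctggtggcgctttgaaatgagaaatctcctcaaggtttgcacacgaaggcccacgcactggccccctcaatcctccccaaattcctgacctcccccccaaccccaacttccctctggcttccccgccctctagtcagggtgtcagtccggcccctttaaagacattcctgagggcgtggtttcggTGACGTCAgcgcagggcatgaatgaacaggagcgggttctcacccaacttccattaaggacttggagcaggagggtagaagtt
Jun, chr4:95052173-95052472, minus strand: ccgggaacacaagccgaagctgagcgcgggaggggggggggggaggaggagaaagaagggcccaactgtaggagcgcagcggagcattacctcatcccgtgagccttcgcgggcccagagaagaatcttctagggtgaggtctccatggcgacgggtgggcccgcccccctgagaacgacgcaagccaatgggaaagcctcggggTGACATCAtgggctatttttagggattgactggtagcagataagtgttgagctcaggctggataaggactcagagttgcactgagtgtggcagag

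A match of letters is a description and not a bound site. Slc25a25 has 3 windows, and the element was in 1 of them. The half-site TGACG, which is contained in the palindrome, was in 5 of the 8 risen genes, in 20.8% of all windows and in 37.5% of the tested genes. The AP-1 letters TGANTCA were in 0 of the 12 risen genes with a window, against 7.81% of all windows. The serum response element (CArG box) was in 0 of them, against 1.63%. The GC box GGGCGG was in 6 of the 8 and in both fallen genes, against 69.3% of the tested genes, and the TATA letters TATAAA in 1 of the 8, against 9.50%. The motifs were chosen with the called genes known, so these shares stand without a test.

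Among 26 immediate early transcription factors, 8 could be tested in all 4 pools: Jun rose, 0 fell and 7 did not pass. The median log2 fold change of the 8 was 0.80, beside 0.01 over all tested genes. In 6 of the 8 both 0.5 h pools lay above both sham pools, beside 27.4% of all tested genes. Members scarce in sham entered this test only if 0.5 h replicate 1 reached 19.0 CPM, so this upward lean is in part fixed by the selection. Over all tested genes 0.163% rose and 0.0408% fell, the shares beside the called counts of each list below. Jund, another AP-1 subunit, had 95.7 and 100.2 CPM at 0.5 h, against 52.0 and 64.3 CPM in sham, without passing (log2 fold change 0.75, adjusted p = 0.170, edgeR). Klf10, a zinc finger repressor induced by TGF-beta, had 20.7 and 22.5 CPM, against 8.13 and 14.9 CPM in sham (0.91, adjusted p = 0.225, edgeR). Both had groups that did not overlap. Junb had 138 and 83.7 CPM at 0.5 h, against 66.9 and 51.1 CPM in sham (0.91 ± 0.45 SE, adjusted p = 0.302, edgeR), again without overlap. Over the 12 members of the list held in the 17-library test the median was lower, at 0.42, with log2 fold changes from -0.51 to 1.96.

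Egr1, Ier2 and Fos, which are widely used as markers of the immediate early response, had groups that overlapped, unlike Jun. Egr1, a zinc finger factor, had 428 and 190 CPM at 0.5 h, against 264 and 281 CPM in sham, so that the sham pools lay between the 0.5 h pools. Its log2 fold change was 0.18 ± 0.42 (SE, adjusted p = 0.822, edgeR). Ier2 had 61.4 and 36.6 CPM, against 30.8 and 42.5 CPM in sham, and the groups overlapped. Fos, the partner of Jun in AP-1, had 15.4 CPM in 0.5 h replicate 2 and was under the bound of 19.0 CPM in replicate 1, against 8.63 and 18.7 CPM in sham. Egr1, Fos and Ier2 were singled out after their values were seen. The sham level of Egr1 was itself above that of later times, where the means ran from 105.5 CPM at 2 h to 23.4 CPM at 24 h.

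Of this list 20 could be tested in the 16-library test, where 2 rose, Jun and Klf2, and 18 had a positive log2 fold change, with a median of 0.80. Klf2, a factor of endothelium that responds to flow, had 23.8 CPM in 0.5 h replicate 2, against 6.13 CPM in sham replicate 1 and at most 6.52 CPM in sham replicate 2 (1.98 ± 0.31 SE, adjusted p = 0.0408, edgeR). It kept this call in 10 of 22 alternative settings, with adjusted p up to 0.0952 (edgeR, DESeq2 or limma). In 0.5 h replicate 1 Klf2 was unlisted and so at most 19.0 CPM, below its level in replicate 2, and the same held for Csrnp1 and Nr4a1. Csrnp1 had 28.1 CPM, against 6.50 CPM, and Nr4a1, an orphan nuclear receptor, 23.4 CPM, against 4.63 CPM, in the same pair of pools. Neither passed (adjusted p = 0.446 and 0.608, edgeR).

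**Figure D2:**
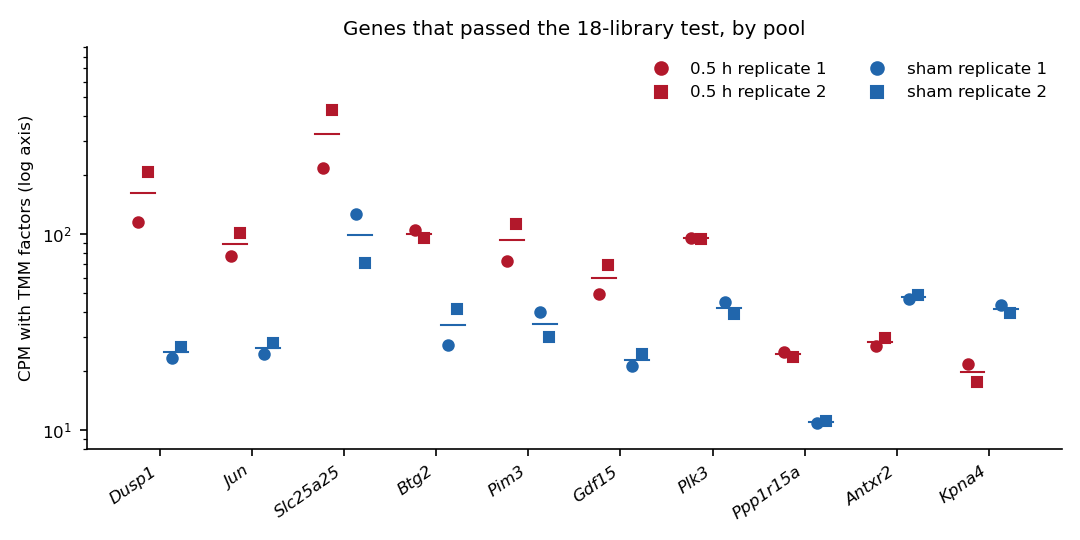
Level (CPM, log axis) of the 10 genes called in the 18-library test in each pool, with 0.5 h in red on the left and sham in blue on the right of each gene. Circles are replicate 1, squares replicate 2 and bars the group means. The groups do not overlap in any of the 10, which the calling favours, while they overlap in 42.6% of all tested genes. The 0.5 h pools of Dusp1 and Slc25a25 lie farther apart than those of Plk3 and Ppp1r15a.

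Signal regulators other than Dusp1 also rose. Plk3, a kinase of the polo family active in stress responses, had 96.0 and 94.1 CPM at 0.5 h, against 45.1 and 39.2 CPM in sham. The 0.5 h pools nearly coincided, and the groups were far apart. Its log2 fold change was 1.17 ± 0.14 (SE, adjusted p = 0.00201, edgeR). It shares 84 exon bases with Tctex1d4 on the other strand, and since the strand of the reads is not given, reads there cannot be assigned to one gene. Pim3, a serine/threonine kinase that promotes survival, had 73.2 and 113 CPM at 0.5 h, against 39.9 and 29.7 CPM in sham (1.42 ± 0.25 SE, adjusted p = 0.0353, edgeR).

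Rgs16, which turns off G protein signalling from receptors, could not be tested in all 4 pools because sham replicate 2 does not list it. It had 260 and 508 reads at 0.5 h, against 40 reads in sham replicate 1 and at most 52 in sham replicate 2. That is 31.4 and 58.3 CPM at 0.5 h, against 5.002 CPM and at most 6.52 CPM in sham, so the groups did not overlap. It rose in the 16-library test (log2 fold change 3.56 ± 0.34 SE, adjusted p = 0.00098, edgeR). With sham replicate 2 set at its bound, an alternative chosen after seeing the data, the log2 fold change over all 4 pools was 2.96. Being listed in 0.5 h replicate 1 and unlisted in sham replicate 2 is how the gene was picked, which fixes part of this gap. A count set at the bound does not measure the spread of the sham pools, so no p-value is given for it. The level was 13.2 CPM at 2 h and 2.42 CPM at 4 h, and lay between 0.473 and 1.59 CPM from 24 h on. An antisense gene, Gm28513, overlaps 236 of its exon bases. Gadd45g, the other gene listed in 0.5 h replicate 1 and unlisted in sham replicate 2, had 53.7 and 74.0 CPM, against 32.4 CPM and at most 6.52 CPM in sham (log2 fold change 1.71 at the bound).

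Other tested members of the feedback list did not pass. Of 18 MAP kinase phosphatases and feedback inhibitors 5 were tested in all 4 pools: Dusp1 rose, 0 fell, and the median log2 fold change was 0.15. Dusp6, the phosphatase of ERK, had 59.1 and 65.1 CPM at 0.5 h, against 39.6 and 49.8 CPM in sham (0.47, adjusted p = 0.314, edgeR). Errfi1, an inhibitor of the EGF receptor, had 1301 and 1264 CPM, against 1107 and 1203 CPM in sham (0.15, adjusted p = 0.490, edgeR). In the 16-library test 17 of the list were measured, 1 rose and the median was 0.39.

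Of the integrated stress response, the programme set off by phosphorylated eIF2 alpha, 2 genes rose of 6 tested and 0 fell. Over all tested genes 0.163% rose and 0.0408% fell. Ppp1r15a, below 19.0 CPM in sham, entered this test only because 0.5 h replicate 1 reached that bound. Ppp1r15a (GADD34), which brings a phosphatase to eIF2 alpha and so restarts translation, had 25.2 and 23.5 CPM at 0.5 h, against 10.9 and 11.2 CPM in sham. The pools lay close together in both groups, on 208 and 205 reads at 0.5 h and 87 and 89 reads in sham. Its log2 fold change was 1.14 ± 0.20 (SE, adjusted p = 0.0357, edgeR), and 11 of its exon bases lie also in Tulp2. Gdf15, a secreted stress hormone, had 49.5 and 69.7 CPM at 0.5 h, against 21.1 and 24.6 CPM in sham (1.38 ± 0.24 SE, adjusted p = 0.0353, edgeR).

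The other 4 of this list were measured in all pools, and the median of the 6 was 0.73. Cebpb, a bZIP factor of liver, had 102 and 106 CPM at 0.5 h, against 51.0 and 64.8 CPM in sham, without overlap (0.84 ± 0.17 SE, adjusted p = 0.104, edgeR). Atf5 had 331 and 367 CPM, against 212 and 246 CPM in sham, also without overlap (0.61, adjusted p = 0.170, edgeR). Atf4, the central factor of the response, which is controlled mainly at translation, had 98.7 and 81.7 CPM, against 89.2 and 97.1 CPM in sham, and the groups overlapped. In the 16-library test 0 of 14 passed, while 13 were positive with a median of 1.03, where the median of all genes was 0.01. Of the heat shock genes 0 of 10 passed in either direction, and the median was -0.13. Hsp90aa1, a cytosolic chaperone, had 333 and 177 CPM at 0.5 h, against 523 and 381 CPM in sham. Hspd1, a mitochondrial chaperone, had 286 and 279 CPM, against 435 and 378 CPM in sham, and neither passed (adjusted p = 0.357 and 0.238, edgeR).

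Btg2, which recruits the CCR4-NOT deadenylase to mRNAs and restrains division, had 105 and 95.5 CPM at 0.5 h, against 27.1 and 41.5 CPM in sham. The groups were far apart. Its log2 fold change was 1.55 ± 0.27 (SE, adjusted p = 0.0353, edgeR), and it did not pass in the 17-library test (adjusted p = 0.155, edgeR). Zfp36 (tristetraprolin), which binds AU-rich elements and destabilizes mRNAs of early genes, had 260 and 220 CPM at 0.5 h, against 124 and 122 CPM in sham. It did not overlap but did not pass (0.96 ± 0.21 SE, adjusted p = 0.123, edgeR), and it shares 125 exon bases with an antisense gene. Of 18 mRNA decay and antiproliferative early genes 10 were tested, 2 rose (Btg2 and Plk3), 0 fell and the median was 0.44. The shares over all tested genes were 0.163% and 0.0408%. Cnot2, a subunit of the deadenylase itself, had 24.9 and 28.2 CPM at 0.5 h, against 38.0 and 36.0 CPM in sham (-0.48, adjusted p = 0.231, edgeR).

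Slc25a25, a calcium-regulated carrier of ATP and phosphate across the inner mitochondrial membrane, had 217 and 429 CPM at 0.5 h, against 127 and 71.1 CPM in sham. The groups did not overlap, and the pools of each group differed. Its log2 fold change was 1.70 ± 0.28 (SE, adjusted p = 0.0239, edgeR) and ran from 1.13 to 2.18 without 1 of the 4 pools at a time. It shares 379 exon bases with Naif1. Of 16 targets of cAMP, glucagon and fasting 9 were tested, Slc25a25 rose, 0 fell and the median was 0.72. In 6 of the 9 both 0.5 h pools lay above both sham pools, beside 27.4% of all tested genes.

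Igfbp1, a hepatic protein that holds insulin-like growth factors in plasma, had 516 and 1018 CPM at 0.5 h, against 256 and 177 CPM in sham, without overlap. It did not pass, at a log2 fold change of 1.83 ± 0.43 (SE, adjusted p = 0.170, edgeR). G6pc, the last enzyme of glucose release, had 922 and 1205 CPM, against 741 and 552 CPM in sham (0.72, adjusted p = 0.253, edgeR). Tat, which breaks down tyrosine, had 3179 and 3105 CPM, against 1905 and 2450 CPM in sham (0.53, adjusted p = 0.231, edgeR). Irs2, an adaptor of the insulin receptor, had 25.04 and 32.8 CPM, against 18.8 and 12.03 CPM in sham (0.91, adjusted p = 0.236, edgeR). All 4 had both 0.5 h pools above both sham pools, as had 27.4% of all tested genes. Igfbp1, G6pc and Irs2 were singled out after their values were seen. Sik1, a kinase that restrains CREB coactivators, had 21.2 and 69.1 CPM at 0.5 h, against 26.4 and 13.4 CPM in sham, and overlapped. It rose in the 17-library test (1.81, adjusted p = 0.0382, edgeR), which leaves out the low 0.5 h pool.

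**Figure D3:**
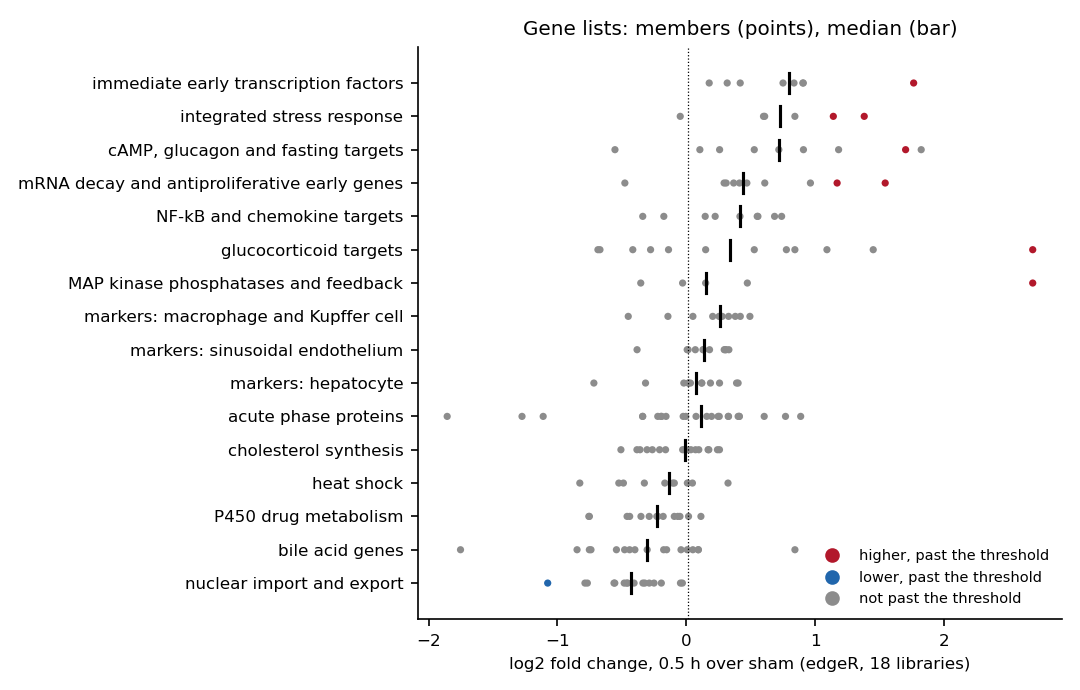
Log2 fold change of 0.5 h over sham (horizontal axis, 18-library test) for the members of 16 gene lists, 1 list per line; points are genes, bars list medians and the dotted line the median of all tested genes at 0.01. Immediate early factors, cAMP targets and the integrated stress response have medians of 0.80, 0.72 and 0.73, and nuclear transport and bile acid lists have medians of -0.43 and -0.30.

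Metabolic lists held no called gene. Of 17 bile acid genes 0 passed, the median was -0.30, and both 0.5 h pools lay below both sham pools in 10, beside 30.04% of all tested genes. Cyp7a1, which sets the pace of bile acid production from cholesterol, had 31.2 and 37.2 CPM at 0.5 h, against 146 and 84.8 CPM in sham. Its groups did not overlap, but the sham pools differed (-1.75 ± 0.66 SE, adjusted p = 0.236, edgeR). Nr0b2 (SHP), a repressor of Cyp7a1, had 67.0 and 80.0 CPM, against 38.6 and 43.2 CPM in sham (0.84, adjusted p = 0.403, edgeR). Akr1d1, a reductase of bile acid synthesis, had 87.3 and 115 CPM, against 176 and 189 CPM in sham (-0.85, adjusted p = 0.192, edgeR). Of 14 cytochrome P450 genes 0 passed and the median was -0.22. Cyp3a11 had 2406 and 2114 CPM, against 3839 and 3774 CPM in sham (-0.75, adjusted p = 0.274, edgeR), but reads of near-identical P450 genes can be split between copies. Gluconeogenesis and amino acid breakdown (18 genes), fatty acid synthesis (13) and cholesterol synthesis (17) had medians of 0.07, 0.05 and -0.01, with 0 called, and the last was 0.0038 with RLE scaling.

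Kpna4, an importin alpha that carries proteins with a nuclear localization signal, had 21.8 and 17.7 CPM at 0.5 h, against 43.4 and 39.7 CPM in sham. Both 0.5 h pools were low and the groups did not overlap. Its level averaged 19.7 ± 2.90 CPM at 0.5 h and 41.6 ± 2.59 CPM in sham (SD, n = 2 each), and the log2 fold change was -1.08 ± 0.17 (SE, adjusted p = 0.0239, edgeR). Antxr2, a receptor for collagen VI and anthrax toxin, had 27.0 and 29.5 CPM at 0.5 h, against 46.9 and 48.6 CPM in sham (-0.76 ± 0.12 SE, adjusted p = 0.0239, edgeR). The groups were again apart, with pools close together in each. Ccdc117 fell in the 17-library test, with 9.87 CPM in 0.5 h replicate 2, against 21.4 and 22.1 CPM in sham (-1.12 ± 0.18 SE, adjusted p = 0.0221, edgeR). In 0.5 h replicate 1 it was under the bound of 19.0 CPM, and so also below both sham pools.

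The other nuclear transport genes leaned the same way as Kpna4. Of 16 importins, exportins and partners 0 rose, 1 fell and 15 did not pass. All 16 had a log2 fold change below 0, with a median of -0.43 beside 0.01 over all tested genes, and in 14 both 0.5 h pools lay below both sham pools. Pools below sham in this way were found in 30.04% of all tested genes, and in 38.0% and 48.6% of those in the 2 longest of 5 classes of transcript length. In the 17-library test 14 were below 0. Kpna1, another importin alpha, had 34.8 and 40.9 CPM at 0.5 h, against 68.7 and 60.3 CPM in sham (-0.77, adjusted p = 0.171, edgeR). Ipo7 had 25.04 and 28.3 CPM, against 50.1 and 42.0 CPM in sham (-0.79, adjusted p = 0.263, edgeR). Ran, the GTPase that drives transport, had 86.5 and 92.2 CPM, against 95.9 and 86.5 CPM in sham, and overlapped. Ribosome biogenesis genes had a median of -0.30 with 0 of 8 called.

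Genes outside the lists with the smallest p that stayed above the threshold and had separate groups included Sos1, an exchange factor of Ras, and Cdk8, a Mediator kinase. Sos1 had 31.8 and 29.4 CPM at 0.5 h, against 51.0 and 44.5 CPM in sham, and Cdk8 had 19.1 and 17.6 CPM, against 27.1 and 27.7 CPM in sham. Scyl2, G3bp2, Ythdf2 and Magi3 had log2 fold changes from -0.74 to -0.49, though G3bp2 shares 2050 exon bases with a gene on the other strand, and these 6 all had an adjusted p of 0.170 (edgeR). On the higher side Mrpl20, a mitochondrial ribosomal protein, had 61.0 and 54.5 CPM, against 38.5 and 37.2 CPM in sham, and Suds3, a subunit of the Sin3 corepressor, had 123 and 107 CPM, against 84.5 and 82.0 CPM in sham. Both had an adjusted p of 0.123 (edgeR).

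Transcript length moved with the direction of the differences. The 4906 genes were split by length into 5 classes of like size, from 328 to 1582 bases in the shortest and from 4588 to 83437 bases in the longest. The median log2 fold changes from the shortest to the longest class were 0.13, 0.05, 0.02, -0.05 and -0.17. In the shortest class 43.1% of genes had both 0.5 h pools above both sham pools, and in the longest 14.3%. In the longest class 48.6% had both 0.5 h pools below, and in the shortest 12.2%. Across genes Spearman's rho of length and log2 fold change was -0.34, a description over genes that share the same 4 libraries. Read coverage of transcripts in the longest class had medians of 69.98% and 76.8% in the 0.5 h pools, against 77.9% and 74.9% in the sham pools, by the authors' coverage column.

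The same split gave 0.04 for the shortest and -0.07 for the longest class at 2 h over sham, and 0.08 and -0.11 for sham replicate 2 over sham replicate 1, as log2 ratios of CPM + 1. Every other later time over sham also had a median above 0 in the shortest and below 0 in the longest class. These were 0.09 and -0.14 at 168 h, 0.07 and -0.10 at 120 h and 0.10 and -0.02 at 4 h. The called higher genes were 1084 to 3581 bases long, beside a median of 2764 over the tested genes. Apob, a long hepatocyte transcript of 13931 bases, had 3168 and 3582 CPM at 0.5 h, against 6063 and 5031 CPM in sham (-0.72, adjusted p = 0.225, edgeR). Of the 4 nuclear transport genes with values above, Kpna1 has 4022 bases, Kpna4 3726 bases and Ipo7 3117 bases, above that median length. Ran, whose groups overlapped, has 2288 bases, below it. Lengths of the rest of that list are not given, so these 4 do not describe the whole list. With a length trend removed from each library, an alternative chosen after seeing the data, 8 genes rose and 2 fell. Of the first calls 7 and 2 were among them, and Gdf15 was lost (adjusted p = 0.0591, edgeR). The part of RNA length or quality in the smaller differences was not tested.

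**Figure D4:**
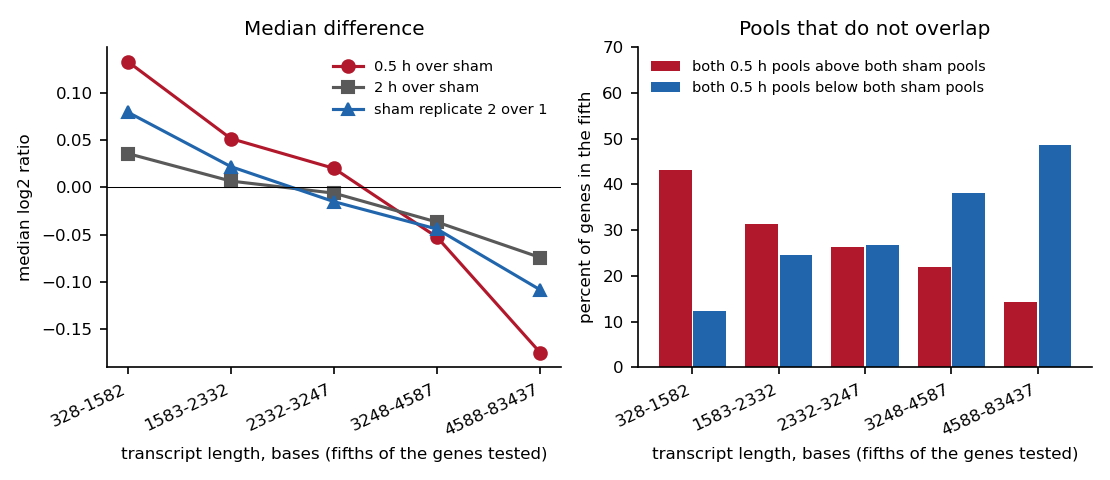
Left, median log2 ratio (vertical axis) in 5 classes of transcript length from short to long (horizontal axis) for 0.5 h over sham, 2 h over sham and sham replicate 2 over sham replicate 1; right, percent of genes whose 0.5 h pools both lay above or both lay below the sham pools. The 0.5 h line, of edgeR fold changes, descends from 0.13 to -0.17. The other lines drawn, of log2 ratios of CPM + 1, descend over a smaller range. Other later times, not drawn, have a median above 0 in the shortest and below 0 in the longest class. At 4 h the medians from short to long were 0.10, -0.03, -0.02, -0.03 and -0.02, so not every time descends step by step. The share above falls from 43.1% to 14.3% with length.

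Markers of cell types were summed for each pool. In a whole-liver pool fewer cells of a type and less RNA per cell cannot be told apart. The 12 hepatocyte markers summed to 160462 and 168114 CPM at 0.5 h, against 152127 and 160660 CPM in sham, with 0 called and a median log2 fold change of 0.08, and the sums of the groups overlapped. The 11 Kupffer cell and macrophage markers listed in all pools summed to 894 and 869 CPM, against 740 and 744 CPM in sham, so that both 0.5 h sums were higher. They had 0 called, a median of 0.26 and 7 of 11 members with both 0.5 h pools higher, beside 27.4% of all tested genes. The 11 markers of sinusoidal endothelium summed to 630 and 654 CPM, against 607 and 587 CPM in sham, again without overlap, with a median of 0.14.

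Blood cell markers were mostly unlisted where tables ended early. Hba-a1, an alpha globin, had 24.7 CPM in 0.5 h replicate 2, against 8.13 and 9.65 CPM in sham, and rose in the 17-library test (1.49 ± 0.23 SE, adjusted p = 0.0194, edgeR). Its reads cannot be told from those of its near copy with certainty, and in 0.5 h replicate 1 it was under the bound of 19.0 CPM. Of the 11 erythroid markers measured 5 were tested there, 1 rose, and the median was 1.27. The 2 listed in all pools summed to 235 and 359 CPM at 0.5 h, against 266 and 202 CPM in sham, and overlapped. In the pair of complete tables all 11 erythroid markers summed to 454 CPM at 0.5 h, against 311 CPM in sham, with 9 of them higher at 0.5 h. Neutrophil markers summed to 86.4 CPM at 0.5 h, against 98.4 CPM in sham, of which Lcn2 alone made up 48.4 CPM, against 83.4 CPM. Of the 10 neutrophil markers tested in the 16-library test 9 had a positive log2 fold change, with a median of 1.70 and 0 called, the opposite direction to the sum. Of all genes of that test 51.1% were positive. T, B and NK cell markers summed to 13.4 CPM at 0.5 h, against 12.005 CPM in sham, and platelet markers to 4.48 CPM at 0.5 h, against 1.501 CPM in sham. Of the platelet markers Gp9 was at 0 reads in both, Gp1ba at 0.5 h, and Gp1bb and Treml1 in sham, where 0 reads allow up to 0.344 CPM and 0.375 CPM. Camp of the neutrophil list was at 0 in both, and Ngp in sham. Stellate cell, cholangiocyte and mesothelium lists had 3, 2 and 1 tested genes, with 0 called. The part of blood or of other cells in the called changes was not tested.

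Inflammatory genes differed between pools of the same group. Of 24 acute phase proteins 0 passed, the median was 0.12, and in 19 the groups overlapped, beside 42.6% of all tested genes. Saa2, a serum amyloid A protein, had 2403 and 153 CPM at 0.5 h, against 627 and 2605 CPM in sham. Lcn2 (lipocalin 2), an iron-binding acute phase protein, had 292 and 48.4 CPM, against 83.4 and 651 CPM in sham. In each group 1 pool was high and 1 low. Mt1, a metal-binding protein, had 444 and 519 CPM at 0.5 h, against 62.0 and 389 CPM in sham, without overlap, and sham replicate 1 was the low one. Reads of the Saa and Mt families can be split between near copies.

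Of 9 targets of NF-kB tested in all 4 pools 0 passed and the median was 0.42. Over the 14 members held in the 17-library test the median was lower, at 0.12, and over the 23 held in the 16-library test it was 0.22. Nfkbia, the inhibitor that NF-kB itself induces, had 74.5 and 88.5 CPM at 0.5 h, against 46.6 and 50.9 CPM in sham, without overlap (0.74 ± 0.18 SE, adjusted p = 0.170, edgeR). Cxcl1, a neutrophil chemokine, had 149 and 23.0 CPM, against 95.4 and 21.6 CPM in sham, and overlapped. Of 11 genes of IL-6 and STAT3 signalling Pim3 rose, 0 fell and the median was -0.09. Socs3, the feedback inhibitor of this pathway, had 13.8 CPM in 0.5 h replicate 2, against 21.6 CPM in sham replicate 1, and averaged 222 CPM at 2 h.

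Other lists held no called gene in the 18-library test unless named above. Glucocorticoid targets had Dusp1 as their 1 called gene of 12, with a median of 0.34. Targets of YAP and SRF had 0 of 7 called, with a median of 0.27. Actg1, a cytoskeletal actin, had 227 and 220 CPM at 0.5 h, against 120 and 118 CPM in sham, without overlap (0.91 ± 0.35 SE, adjusted p = 0.240, edgeR). Growth factors and their receptors (9 tested), hypoxia targets (8) and clock genes (8) had medians of -0.08, -0.07 and -0.12. Of the flow and shear list 2 were tested in all pools and 17 in the complete pair, where Klf2 rose and the median was 0.53. Rhob, a small GTPase of that list, had 33.4 and 46.1 CPM, against 19.5 and 19.0 CPM in sham (1.04 ± 0.24 SE, adjusted p = 0.170, edgeR). Of 16 replication and G1/S genes 2 were tested in all pools and 16 in the complete pair, with 0 called and a median of 0.12 there.

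Levels at later times were set beside those at 0.5 h. In the same fit 327 of 4906 genes (6.67%) were higher at 2 h than at 0.5 h and 326 (6.64%) were lower, a comparison that uses the same 0.5 h pools. Library totals in place of TMM moved these to 178 and 866 and put the median of all genes at -0.16. Of the 8 risen genes 3 were lower at 2 h, Dusp1, Jun and Gdf15, and 0 were higher. The called genes were picked by their levels in these same 0.5 h pools, which favours a return towards sham at 2 h. Their p-values at 2 h carry that selection and are given as a description. Dusp1 averaged 27.9 ± 5.65 CPM at 2 h and 161 ± 64.6 CPM at 0.5 h (SD, n = 2 each), a log2 difference of -2.53 (adjusted p = 9.61e-05, edgeR). Gdf15 averaged 11.98 CPM at 2 h and 59.6 CPM at 0.5 h (-2.32, adjusted p = 9.61e-05, edgeR). Jun averaged 33.9 CPM at 2 h and 89.0 CPM at 0.5 h (-1.39, adjusted p = 9.61e-05, edgeR), and 55.4 CPM at 4 h. Both fallen genes were higher at 2 h, Kpna4 by 0.64 and Antxr2 by 0.60 on the log2 scale (adjusted p = 0.0301 and 0.00711, edgeR).

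The other 5 risen genes did not pass between 2 h and 0.5 h (adjusted p from 0.133 to 0.831, edgeR), and their means moved either way. Slc25a25 averaged 99.1 CPM in sham, 323 CPM at 0.5 h, 302 CPM at 2 h and 461 CPM at 4 h. Btg2 averaged 34.3, 100.2, 135 and 228 CPM at the same 4 points, so that its highest mean came at 4 h. Pim3 averaged 34.8, 93.1, 138 and 130.3 CPM, and Plk3 averaged 42.2, 95.1, 109 and 106.5 CPM. Ppp1r15a averaged 11.0, 24.3, 19.1 and 18.2 CPM. The 2 h mean was below the 0.5 h mean in Slc25a25 and Ppp1r15a and above it in Btg2, Pim3 and Plk3.

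**Figure D5:**
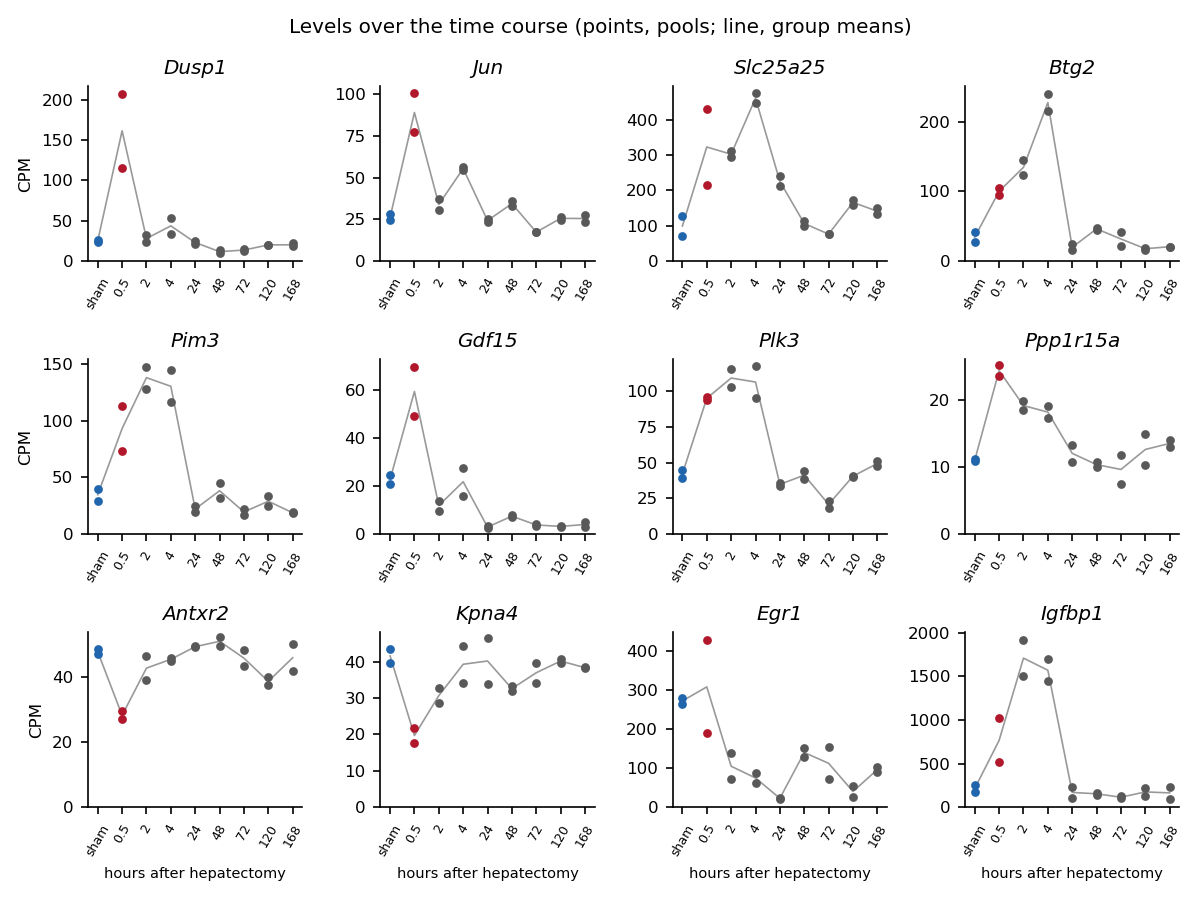
Level (CPM, vertical axis) of the 10 called genes and of Egr1 and Igfbp1 at sham and each time after hepatectomy (horizontal axis, h), with sham in blue, 0.5 h in red and later pools in grey; each point is a pool and the line joins the group means. Jun, Dusp1, Gdf15 and Ppp1r15a have their highest mean at 0.5 h, and Slc25a25 and Btg2 at 4 h.

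Few genes had their extreme at 0.5 h, and among the other groups some had fewer and some had more. Both 0.5 h pools lay above all 16 other libraries in 108 of 4906 genes (2.20%) and below all of them in 97 (1.98%). For the other groups these counts ran from 15 above and 5 below at 120 h to 566 above and 629 below at 4 h. They were 86 and 97 in sham, 80 and 83 at 2 h, 67 and 91 at 72 h and 99 and 114 at 168 h. At 24 h they were 129 and 151, and at 48 h 431 and 223. Of the called genes Jun, Dusp1, Gdf15 and Ppp1r15a were among the 108. Arl4d, a small GTPase, was another, with 38.8 and 50.7 CPM at 0.5 h, against 25.4 and 20.7 CPM in sham and 6.06 CPM on average at 2 h. It did not pass against sham (0.96, adjusted p = 0.206, edgeR). Rara, the retinoic acid receptor alpha, had 28.4 and 27.4 CPM at 0.5 h, against 15.6 and 18.9 CPM in sham (0.69, adjusted p = 0.170, edgeR). Lower levels at 2 h follow from how these genes were picked and were given no test. Arl4d and Rara were singled out after their values were seen.

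Per length, the risen genes differed widely in level. In deposited RPKM, Slc25a25 averaged 91.7 at 0.5 h and 28.1 in sham, and Dusp1 84.0 at 0.5 h and 12.9 in sham. Gdf15 averaged 55.8 RPKM at 0.5 h and 21.3 in sham, Pim3 39.1 at 0.5 h and 14.6 in sham, and Plk3 39.0 at 0.5 h and 17.3 in sham. Btg2 averaged 33.0 RPKM at 0.5 h and 11.2 in sham, and Jun 28.4 at 0.5 h and 8.30 in sham. Ppp1r15a was the lowest of the 8, at 10.5 RPKM at 0.5 h and 4.75 in sham. Of the fallen genes Kpna4 averaged 5.37 RPKM at 0.5 h and 11.3 in sham, and Antxr2 7.59 at 0.5 h and 12.8 in sham. Dusp1 thus stood next to Slc25a25 at 0.5 h and below Gdf15, Plk3 and Pim3 in sham, with pools that do not settle the order of close neighbours.

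The tables that ended early left gaps on both sides. Rgs16 and Gadd45g were the 2 genes unlisted in sham replicate 2 and above its bound in both 0.5 h pools. In 321 genes 0.5 h replicate 1 had no value and both sham pools lay above its bound of 19.0 CPM, so that this pool was below both. These genes were picked by their sham level, so the count is a description. Ccdc117 was the 1 of these that passed the 17-library test. Creb1, the factor that binds the cAMP response element, was among them with 8.72 CPM in 0.5 h replicate 2, against 19.1 and 19.3 CPM in sham, without passing (-1.12, adjusted p = 0.580, edgeR). It was singled out after its values were seen. Spata2l had 25.9 and 68.6 CPM at 0.5 h, against 26.5 and 26.8 CPM in sham, and rose in the 17-library test (1.38, adjusted p = 0.0114, edgeR), although 0.5 h replicate 1 lay at the sham level. Epha2, an ephrin receptor kinase, had 33.3 CPM in 0.5 h replicate 2, against 12.5 and 13.4 CPM in sham (1.37 ± 0.20 SE, adjusted p = 0.0145, edgeR), and was under the bound of 19.0 CPM in 0.5 h replicate 1. The calls of the 17-library test rest on 1 pool at 0.5 h: without one or the other sham pool Ccdc117, Hba-a1, Epha2 and Spata2l lost theirs, and over 24 alternative settings these 4 kept it in 21, 22, 21 and 22. Sik1 kept its call in 14 of 24.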

How the data were processed

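Poly(A) RNA from pooled mouse liver was fragmented, primed with random hexamers and amplified by PCR, per the labels' protocols. Mapping used build mm10, per the submitters' processing notes. Not given in the sources used here are the aligner, the counter and the strand. The authors deposited, per the file headers, the count of uniquely mapped reads of each gene, an RPKM value and the percent of each gene's bases covered. The counts are not normalized, and the RPKM values are counts over gene length and header total.

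Library sizes were the header totals, since 2 of the 18 tables end early. The main test was the quasi-likelihood F test of edgeR 4.0.16 (R 4.3.3) with TMM factors and all 9 groups in each fit, leaving 9, 8 and 7 residual degrees of freedom in 18, 17 and 16 libraries. Adjustment of p-values was by Benjamini-Hochberg over all genes of a test. A gene was kept if 2 or more libraries reached the CPM equal to 10 reads at median depth and its reads summed to 15 or more. The SE is the absolute log2 fold change over the root of F. Floors of 3 reads cover counting error alone, as reads from PCR do not each stand for a molecule. Named genes were those called, those nearest the threshold with separate groups, and up to 4 of each of 33 lists, smallest p first; others are marked in the text, and some genes that these rules name are not reported here. The members, lists and motifs were chosen with earlier results of these data known. Alternatives used DESeq2 1.42.0, limma 3.58.1, other scalings, filters and sets of libraries; scripts were tested on simulated counts. No replicates held identical values. Exon overlaps came from a GENCODE annotation and promoters from RefSeq, both of GRCm38. Figures were drawn with matplotlib 3.10.9.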

Additional observations from a re-analysis of the deposited data

How the results depend on the processing

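No called gene changed direction under the alternatives run. Directions of some results that were not called did: the cholesterol synthesis median was -0.01 with TMM and 0.0038 with RLE, the acute phase median was 0.12 in 18 libraries and -0.16 in 17, and Egr1 had 0.18 in 18 libraries and -0.51 in 17. In 18 libraries DESeq2 called 68 higher and 56 lower, with 6 and 2 of the first calls among them, the early groups alone 5 and 0, and only the 2 groups compared 4 and 1. In 17 libraries DESeq2 called 20 higher, library totals 1 lower and the early groups 0 lower. In 16 libraries DESeq2 called 20 and 1, no filter 43 and 7, and the early groups 15 and 2. For 2 h against 0.5 h library totals gave 178 higher and 866 lower. Leaving out each library in turn gave 2 to 10 higher and 0 to 3 lower in 18 libraries, 4 to 13 and 0 to 2 in 17, and 5 to 7 and 0 in 16. For 2 h against 0.5 h each of the 4 pools of these groups was left out in turn, which gave 150 to 210 higher and 121 to 203 lower, with 327 and 326 in full. In 18 libraries leaving out 1 library of 2 h, 4 h, 48 h or 168 h gave 5 higher. In 17 libraries it gave 4 and 0 without either sham pool. The alternatives for 2 h, the length trend and the crossed pairs were added after seeing the data.

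Replicate numbers showed no steady pairing of the samples. Pools of like number at 0.5 h and in sham had a correlation of deviations of -0.12. Over the 36 pairs of groups the signs were mixed, from -0.55 for 4 h and 24 h to 0.53 for 24 h and 120 h. Whether pools of different groups shared a batch was not tested. With a replicate block 8 and 2 genes were called in 18 libraries (7 and 2 of them among the first calls), 11 and 1 in 17, 5 and 0 in 16, and 330 and 332 for 2 h against 0.5 h. The crossed pairing called 6 and 2.

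With 2 pools per group and tables that end at 157 and 52 reads, genes of low level could not be compared in all 4 pools.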
